A study of Mus musculus with 2 samples.

Results

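Microbial sensors and myeloid cytokine receptors were followed as 10 genes, chosen by symbol from the 31053 genes counted in a single-cell RNA sequencing study of mouse bone marrow haematopoietic stem cells (HSCs). They were Tlr2, Tlr4, Myd88, Il1r1, Il6ra, Il6st, Csf1r, Csf2rb, Csf3r and Tnfrsf1a. The Listeria library came from wild-type C57BL/6J mice taken 6 weeks after a challenge with Listeria monocytogenes, an intracellular bacterium, and the naive library from untreated wild-type C57BL/6J mice. For both libraries the labels give an age of 6 to 8 weeks, without saying whether this was the age at challenge or at sampling, and they give neither the number of mice nor a sorting gate. The name under which the Listeria library was deposited carries a knockout tag, whereas its labels call the mice wild type, and the labels were followed.

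Each group was 1 library, so variation between mice was not measured, no test across libraries could be made, and the group and the library cannot be told apart. All intervals below are exact 95% intervals for counting error only. After filtering, 4839 Listeria and 6375 naive cells remained, with a median of 7239 and 6972 UMIs per cell (unique molecular identifiers, counts of captured transcripts), and 14 cell barcodes occurred in both libraries. Levels are UMIs per 1000000 UMIs of the same cells (CPM). Clusters of cells were built without the 10 genes and named from marker genes. By markers, HSC-like cells numbered 1170 in the Listeria and 1828 in the naive library, multipotent progenitor-like cells 1704 and 1213, and megakaryocyte lineage-like cells 953 and 596. Myeloid-like cells numbered 186 in the Listeria and 258 in the naive library, as 1 neutrophil-like cluster, 1 dendritic-like cluster and 1 cluster of Elane-positive and Mpo-positive progenitors, and no cluster was monocyte-like. Cells outside the HSC label were thus common, since HSC-like cells made up 24.2% of kept Listeria and 28.7% of kept naive cells. Cluster 3, multipotent-like, held 907 Listeria and 19 naive cells, and cluster 13, megakaryocyte-like, held 382 Listeria and 27 naive cells, so results that rest on them are given with and without them.

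Toll-like receptors recognise conserved microbial molecules, and they share with the interleukin-1 receptor the adaptor MyD88, which passes the signal on to kinases and NF-kB. The interleukin-6, tumour necrosis factor and colony-stimulating factor receptors read signals that marrow receives during infection. The colony-stimulating factor receptors steer the production and survival of granulocytes, macrophages and dendritic cells. Several of these receptors are known to act on stem and progenitor cells as well as on mature myeloid cells.

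Promoter sequence is shown for 3 members whose levels peaked in different cells: Csf3r (neutrophil-like), Il1r1 (multipotent-like) and Il6st (dendritic-like). A RefSeq window upstream of the start (GRCm38.p6, forward strand) was matched for 7 of the 10 genes. Each window was cut where the first annotated exon in it begins, be it of another gene or of the gene itself. The Csf3r window was cut at the annotated start of Csf3r (chr4:126024550), so its 141 bases end upstream of the RefSeq start. Csf3r lies at chr4:126024409-126024549, Il1r1 at chr1:40224830-40225079 and Il6st at chr13:112463820-112464069. Capitals mark matches to TTNNGNAA, a pattern of the C/EBP type, searched on both strands.
Csf3r: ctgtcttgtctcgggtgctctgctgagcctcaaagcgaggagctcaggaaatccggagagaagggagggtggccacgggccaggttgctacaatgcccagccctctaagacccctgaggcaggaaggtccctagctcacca
Il1r1: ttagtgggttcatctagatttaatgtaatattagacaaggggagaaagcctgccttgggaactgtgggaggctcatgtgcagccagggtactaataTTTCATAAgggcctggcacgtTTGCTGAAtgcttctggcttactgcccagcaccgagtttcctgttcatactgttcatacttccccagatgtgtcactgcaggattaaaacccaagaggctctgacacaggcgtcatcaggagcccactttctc
Il6st: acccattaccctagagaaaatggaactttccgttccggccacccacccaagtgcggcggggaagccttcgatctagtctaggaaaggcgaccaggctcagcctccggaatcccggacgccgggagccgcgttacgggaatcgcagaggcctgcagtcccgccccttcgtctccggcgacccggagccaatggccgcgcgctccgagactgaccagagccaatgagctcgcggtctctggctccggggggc
The Il1r1 window of 250 bases held 2 matches, at positions 97 and 118, and neither the Il6st window nor the 141 bases of Csf3r held any. Of all promoter windows of 250 bases, 36.9% held TTNNGNAA, and of windows of 141 bases 25.1% did. None of the 3 windows held GAGGAA (PU.1 type), which 23.3% of all windows of 250 bases and 14.0% of those of 141 bases held. A match describes letters only, and its absence says only that these letters are not in the window.

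Across classes, with the 3 myeloid-like clusters taken singly, 9 of the 10 genes were highest in a myeloid-like class in both libraries. Il1r1 was the exception. The share of all genes that were highest in a myeloid-like class was not computed, so this count cannot be read against it. These classes also held few cells, and the places of Tlr4 and Csf1r rest on few UMIs. With these clusters pooled, naive Tlr4 was at 1.55 CPM, below the 2.61 CPM of naive HSC-like cells. Pooled Il6st was at 7.73 CPM in the Listeria and 13.2 CPM in the naive library, below HSC-like cells at 17.8 and 14.5 CPM. Tlr2, the receptor for bacterial lipoproteins (chr3:83836272-83841767, mm10), was a neutrophil-like gene here. It reached 104 CPM (80.4 to 132) in Listeria and 134 CPM (110 to 162) in naive neutrophil-like cells, and up to 26 UMIs in 1 naive cell. Dendritic-like cells followed at 22.4 and 18.9 CPM and the myeloid progenitor-like cells at 13.4 and 8.93 CPM in the Listeria and naive libraries. In HSC-like cells Tlr2 stood at 5.42 CPM (3.92 to 7.30) in the Listeria and 4.82 CPM (3.69 to 6.19) in the naive library. Multipotent-like cells had 4.53 and 5.38 CPM and megakaryocyte-like cells 5.07 and 4.60 CPM in the same order of libraries, so the counting intervals of these 3 classes overlapped. Naive B cell-like cells, at 4.05 CPM, lay inside the interval of naive HSC-like cells.

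Tlr4, the receptor for lipopolysaccharide (chr4:66827584-66930284), was sparse, with 111 Listeria and 88 naive UMIs over all kept cells. The highest level was that of the Listeria myeloid progenitor-like cells, 11.9 CPM, but it rested on 8 UMIs, against 1 UMI in the naive ones. In the naive library neutrophil-like cells were the highest class, at 3.79 CPM (0.78 to 11.1) from only 3 UMIs. HSC-like cells had 4.79 CPM (3.39 to 6.57) in the Listeria and 2.61 CPM (1.79 to 3.66) in the naive library. Within the HSC-like class Tlr4 was uneven. Cluster 10, in which all 18 HSC markers counted and which Sult1a1, Meg3 and Pdzk1ip1 were among the genes to lead, had 7.83 CPM (4.96 to 11.7) in the Listeria and 5.12 CPM (2.86 to 8.44) in the naive library. In cluster 6, led by Hbegf and Atf3, it had 1.16 CPM (0.14 to 4.19) and 1.61 CPM (0.77 to 2.96). Multipotent-like cells had 2.46 CPM in the Listeria and 1.22 CPM in the naive library, and in megakaryocyte-like cells the 2 libraries lay at 1.08 and 1.06 CPM. Erythroid-like cells had no Tlr4 UMI in 70 Listeria or 52 naive cells. For a count of 0, an approximate upper limit of 3 counts was used in place of an exact interval. It put the underlying share of cells with a captured UMI at up to 4.29% and 5.77%. This says nothing of cells that express Tlr4 without one.

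Myd88, the adaptor itself (chr9:119335934-119341411), was found in every class. Neutrophil-like cells were highest, at 68.1 CPM (49.5 to 91.4) in the Listeria and 63.2 CPM (46.9 to 83.4) in the naive library. Its level in HSC-like cells was 18.8 CPM (15.9 to 22.1) in the Listeria and 11.6 CPM (9.81 to 13.6) in the naive library, with UMIs in 135 cells of each. Multipotent-like cells had 19.1 CPM (16.7 to 21.7) and 12.4 CPM (10.1 to 15.02), and megakaryocyte-like cells 23.7 CPM (20.7 to 27.1) and 16.6 CPM (13.5 to 20.4). In each of these 3 classes the Listeria library was above the naive one and the intervals of the 2 libraries did not overlap. In B cell-like cells Myd88 was at 19.1 CPM in the Listeria and 14.95 CPM in the naive library.

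Il1r1, the signalling receptor for interleukin-1 (chr1:40225080-40317257), was the only member whose named classes were led by multipotent-like cells. They had 18.4 CPM (16.1 to 20.9) in the Listeria and 20.8 CPM (17.8 to 24.2) in the naive library, above the HSC-like cells at 8.07 CPM (6.21 to 10.3) and 7.74 CPM (6.28 to 9.43). Megakaryocyte-like cells had 5.71 and 5.49 CPM in the Listeria and naive libraries. Cluster 12, left unnamed because its 10 leading genes held 1 marker of another class and none of the lymphoid progenitor class that its markers otherwise fitted best, was higher still, at 57.1 CPM (35.8 to 86.4) and 35.9 CPM (27.6 to 45.8). In the myeloid progenitor-like and dendritic-like cells of both libraries no Il1r1 UMI was found. The same limit of 3 counts stood at 4.46 and 3.83 CPM in myeloid progenitor-like and at 6.10 and 2.98 CPM in dendritic-like cells of the Listeria and naive libraries. Neutrophil-like cells held 4 Listeria UMIs and 1 naive UMI.

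Tnfrsf1a, the type 1 receptor for tumour necrosis factor (chr6:125349362-125362484), was widely found. Myeloid progenitor-like cells had 65.4 CPM (47.5 to 87.8) in the Listeria and 58.7 CPM (43.0 to 78.3) in the naive library, and neutrophil-like cells 66.5 and 75.9 CPM, within each other's intervals. Dendritic-like cells had 48.8 and 48.7 CPM. Among the other classes HSC-like cells came next, with 33.9 CPM (29.98 to 38.2) in the Listeria and 27.0 CPM (24.2 to 30.03) in the naive library. Multipotent-like cells had 29.1 CPM (26.2 to 32.2) in the Listeria and 24.96 CPM (21.7 to 28.6) in the naive library, and megakaryocyte-like cells 18.3 and 21.8 CPM. B cell-like cells were at 3.52 CPM in the Listeria and 4.27 CPM in the naive library. Within the HSC-like class, cluster 10 had 42.2 CPM in the Listeria and 37.9 CPM in the naive library, while cluster 6 had 23.2 and 19.6 CPM, and the intervals of the 2 clusters did not overlap in either library.

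The interleukin-6 receptor has a binding chain, Il6ra (chr3:89864059-89913196), and a signalling chain shared with other cytokines of the family, Il6st or gp130 (chr13:112464070-112510086). Il6ra was highest in dendritic-like cells, at 171 CPM (136 to 211) in the Listeria and 107 CPM (87.996 to 130) in the naive library. Its level in HSC-like cells was 37.7 CPM (33.5 to 42.2) in the Listeria and 37.5 CPM (34.2 to 41.1) in the naive library, the smallest difference among the members counted in that class. Multipotent-like cells had 42.7 and 45.3 CPM in the Listeria and naive libraries, and megakaryocyte-like cells 33.4 CPM (29.8 to 37.4) and 25.7 CPM (21.7 to 30.2).

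Il6st was also highest in dendritic-like cells, with 24.4 CPM (12.6 to 42.6) in the Listeria and 32.8 CPM (22.6 to 46.0) in the naive library. HSC-like cells had 17.8 CPM (14.96 to 21.0) in the Listeria and 14.5 CPM (12.5 to 16.8) in the naive library, above the multipotent-like cells at 11.1 CPM (9.36 to 13.1) and 7.22 CPM (5.50 to 9.31). Neutrophil-like cells, which had Il6ra at 52.6 CPM in the Listeria and 36.7 CPM in the naive library, held 1 Il6st UMI and none. The chains did not follow 1 order over the HSC-like clusters. Cluster 10 had the lowest Il6ra of the 4, at 25.2 CPM (19.8 to 31.6) in the Listeria and 19.8 CPM (15.02 to 25.6) in the naive library, with Il6st at 22.5 CPM (17.4 to 28.6) and 23.2 CPM (18.01 to 29.4). Cluster 6 had Il6ra at 46.95 and 42.8 CPM and Il6st at 12.75 and 12.55 CPM. Cluster 4 had both chains high, with Il6ra at 57.4 and 53.7 CPM and Il6st at 22.1 and 19.7 CPM, and cluster 7 had 29.99 and 40.03 CPM of Il6ra and 9.998 and 8.37 CPM of Il6st. UMIs of both chains were seen in the same cell in 2.48% of Listeria and 2.02% of naive HSC-like cells, and in 15.4% of the dendritic-like cells of each library.

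**Figure D1:**
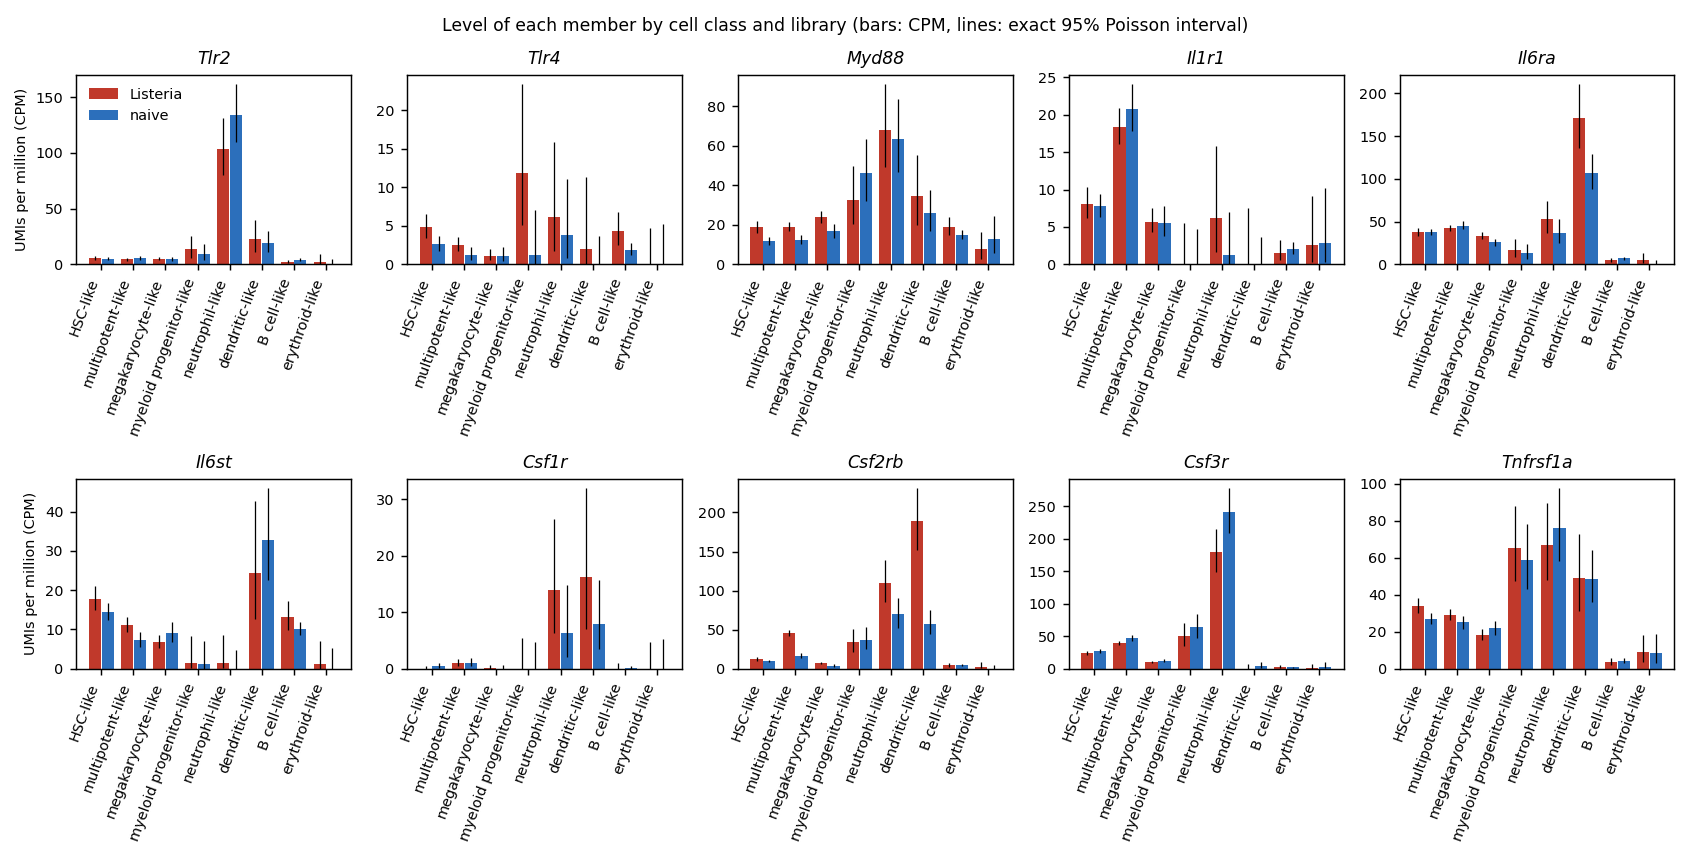
Level of each member in CPM (bars) with exact 95% Poisson intervals (lines) by cell class, Listeria (red) left of naive (blue), 1 library each. The highest bars stand in a myeloid-like class except for Il1r1, where multipotent-like cells lead at 18.4 CPM in the Listeria and 20.8 CPM in the naive library.

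Csf1r, the receptor for macrophage colony-stimulating factor, was highest in dendritic-like and neutrophil-like cells, within a total of 34 Listeria and 40 naive UMIs. Dendritic-like cells had 16.3 CPM (7.02 to 32.0) in the Listeria and 7.95 CPM (3.43 to 15.7) in the naive library, from 8 UMIs each, and neutrophil-like cells 13.9 CPM (6.37 to 26.4) and 6.32 CPM (2.05 to 14.8). No Csf1r UMI was found in the 1170 Listeria HSC-like cells and 6 were found in the 1828 naive ones. Multipotent-like cells had 1.03 CPM in the Listeria and 0.979 CPM in the naive library. The unnamed cluster 12 held a further 3 Listeria and 10 naive UMIs.

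Csf3r, the receptor for granulocyte colony-stimulating factor (chr4:126024550-126044440), was highest in neutrophil-like cells. They had 180 CPM (148 to 215) in the Listeria and 242 CPM (209 to 278) in the naive library, and up to 29 UMIs in 1 naive cell. The order then ran through myeloid progenitor-like cells, at 50.6 and 63.8 CPM, multipotent-like cells, at 39.5 CPM (36.1 to 43.1) and 47.5 CPM (42.9 to 52.4), and HSC-like cells, at 24.2 CPM (20.9 to 27.9) and 27.1 CPM (24.3 to 30.1) in the Listeria and naive libraries. Megakaryocyte-like cells were lower, at 9.92 and 12.2 CPM. Dendritic-like cells held no Csf3r UMI in the Listeria library and 4 in the naive library. Among HSC-like clusters, cluster 7 had 39.4 CPM in the Listeria and 40.4 CPM in the naive library, while cluster 4, led by the interferon-induced genes Rsad2, Cxcl10 and Ifit1, had 14.4 and 10.48 CPM.

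Csf2rb, the beta chain shared by the receptors for interleukin-3, interleukin-5 and granulocyte-macrophage colony-stimulating factor (chr15:78325752-78353847), differed between the libraries in dendritic-like and multipotent-like cells more than in HSC-like cells, where its log2 ratio was 0.33 with an interval that held 0. Dendritic-like cells had 189 CPM (153 to 232) in the Listeria and 57.6 CPM (43.7 to 74.5) in the naive library. Neutrophil-like cells had 110 CPM (85.8 to 139) and 69.6 CPM (52.4 to 90.5), and myeloid progenitor-like cells 34.2 and 37.0 CPM. The dendritic-like difference came with other marker levels in that cluster, and the part of this in the result was not tested. Siglech, a plasmacytoid dendritic marker, had 81.3 CPM in Listeria and 267 CPM in naive dendritic-like cells, and Ccr9 40.6 and 151 CPM, whereas Cd74 had 9790 and 8239 CPM. Of the other dendritic markers, Bst2, Irf8, Flt3 and Itgax were also lower in the Listeria library, with Itgax at 26.4 against 50.7 CPM. H2-Aa, H2-Ab1, Batf3 and Zbtb46 were higher there, with Batf3 at 128 against 117 CPM, and Xcr1 held 2 Listeria and 5 naive UMIs. Up to 12 Csf2rb UMIs fell in 1 Listeria dendritic-like cell.

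In multipotent-like cells Csf2rb was at 45.1 CPM (41.4 to 48.9) in the Listeria and 16.4 CPM (13.7 to 19.4) in the naive library, a log2 ratio of 1.46 (1.18 to 1.74). Of the 567 Listeria UMIs behind that level, 455 lay in cluster 3, where Csf2rb reached 73.0 CPM (66.5 to 80.1). Csf2rb was the second of the leading genes of cluster 3 although it was not used to build the clusters. The other multipotent-like clusters of the same library had 19.2 CPM (13.03 to 27.2) for cluster 5 and 17.1 CPM (13.6 to 21.3) for cluster 8. In the naive library cluster 5 had 15.02 CPM and cluster 8 had 18.9 CPM, and the 19 cells of cluster 3 held 3 UMIs, or 28.0 CPM (5.77 to 81.8). Without clusters 3 and 13 the log2 ratio in multipotent-like cells was 0.12, below the limit of 1.5-fold. Cluster 3 was named from 7 of 12 multipotent markers, with 10 of 18 HSC markers also counted. With coarser clusters at resolution 0.5 the difference stood in the HSC-like class instead, at 2.30, and the multipotent-like ratio turned to -0.21. With HSC-like and multipotent-like cells together it was 1.39.

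Csf2rb2, the second mouse beta chain, which serves interleukin-3 alone (chr15:78282507-78305721), showed the same placement. It had 11.4 CPM (9.58 to 13.4) from 143 UMIs in Listeria and 2.20 CPM (1.31 to 3.48) from 18 UMIs in naive multipotent-like cells, and 124 of the Listeria UMIs lay in cluster 3. Without clusters 3 and 13 there were 19 Listeria and 17 naive UMIs, a log2 ratio of 0.50 (-0.52 to 1.54), inside the limit. The transcripts share sequence, with 18.4% of the 50-base words of Csf2rb also found in Csf2rb2, so reads could be split between them. In the last 600 bases, where reads of a 3' kit fall, they shared 0%. Megakaryocyte-like cells had Csf2rb at 7.01 CPM (5.41 to 8.93) in the Listeria and 3.54 CPM (2.16 to 5.47) in the naive library. HSC-like cells had 12.1 CPM (9.80 to 14.8) and 9.64 CPM (8.00 to 11.5).

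**Figure D2:**
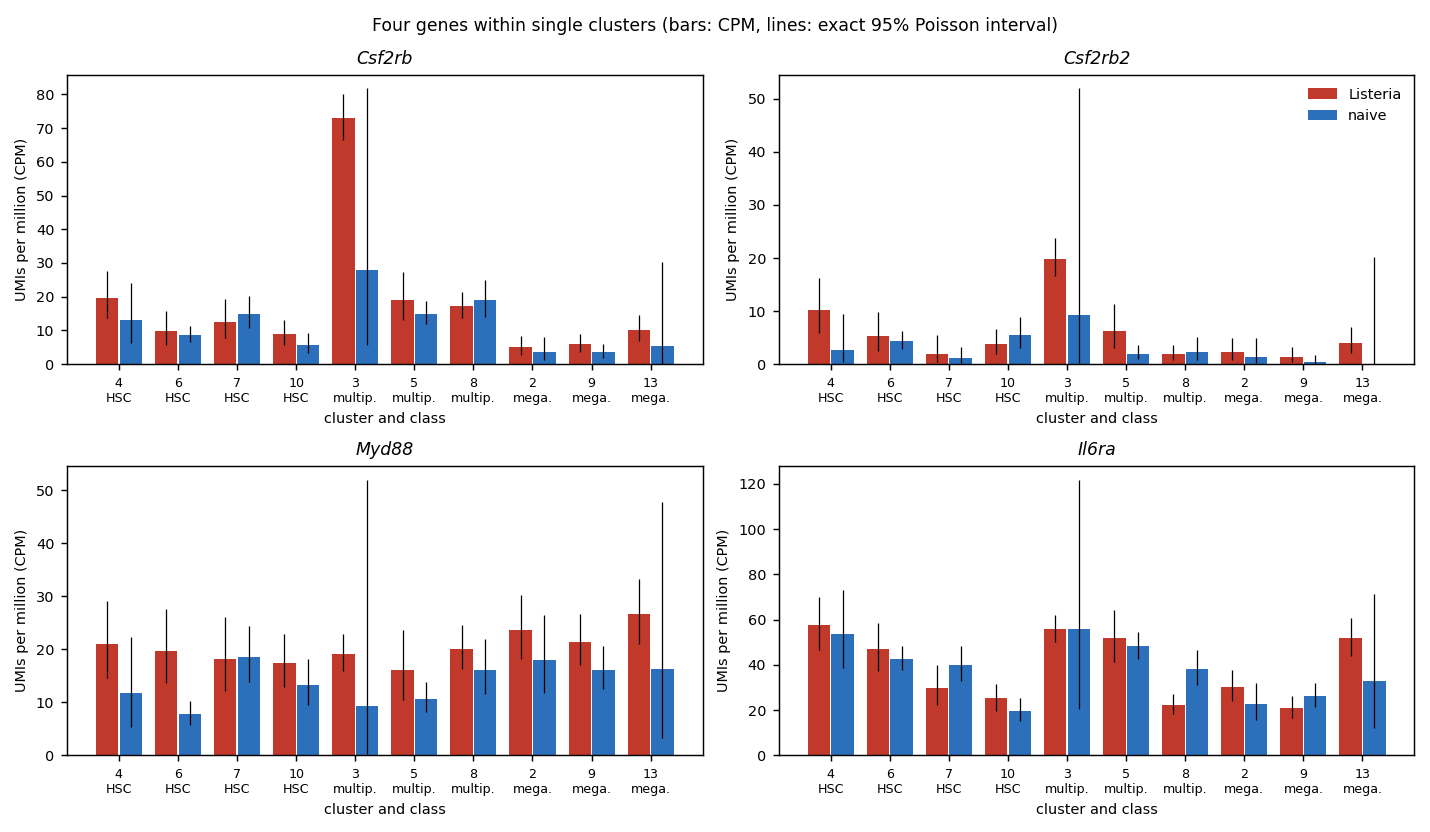
Level in CPM (bars) with exact 95% Poisson intervals (lines) of Csf2rb, Csf2rb2, Myd88 and Il6ra in each HSC-like, multipotent-like (multip.) and megakaryocyte-like (mega.) cluster, Listeria (red) left of naive (blue). Csf2rb stands out in Listeria cells of cluster 3 at 73.0 CPM, and Myd88 is higher in the Listeria library in 9 of the 10 clusters. Of these, clusters 3 and 13 rest on 1 and 3 naive Myd88 UMIs.

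Between the libraries, a member was counted in a class only with at least 50 UMIs over both libraries, and called where its ratio passed 1.5-fold. In HSC-like cells 9 of 10 members were counted and 2 were called higher in the Listeria library, Tlr4 (log2 ratio 0.88, 0.17 to 1.60) and Myd88 (0.69, 0.36 to 1.03). Of all 10745 genes counted there 6.35% were called higher and 2.07% lower, and of those with 50 to 1000 UMIs, the range of every member counted, 8.21% higher and 2.55% lower. No member was called lower. The median log2 ratio of the counted members was 0.29, against 0.11 for all genes counted. Tnfrsf1a was higher by 0.33 (0.09 to 0.56), inside the limit with an interval above 0. The ratios of Il6ra (0.01), Il1r1 (0.06), Tlr2 (0.17) and Csf3r (-0.16) had intervals that held 0.

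With TMM factors Myd88 lay at 0.583, just inside the limit of 0.585, and with median-ratio size factors at 0.584. With cells thinned to 2500 UMIs in a single random draw it was at 0.54, and such a draw adds counting error of its own. Over all draws Myd88 was expected in 4.44% of Listeria and 2.74% of naive HSC-like cells. Tlr4 was at 0.56 with at most 5% mitochondrial UMIs.

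Tlr4 also differed between HSC-like clusters that the libraries filled unequally. Cluster 6, low in Tlr4, held 252 of the 1170 Listeria and 907 of the 1828 naive HSC-like cells. Cluster 10, high in Tlr4, held 465 and 436. Within cluster 10 the Tlr4 log2 ratio was 0.61 (-0.39 to 1.66), within cluster 6 it was -0.47 (-3.70 to 1.76) and within cluster 7 it was -0.22 (-2.40 to 1.68). In cluster 4 there were 9 Listeria UMIs and no naive UMI. With coarser clusters at resolution 0.5, where the classes held partly other cells, the Tlr4 ratio in HSC-like cells was 0.005 and that of Myd88 0.53. The part of the cluster mix in the Tlr4 result was not tested.

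Myd88 was above 0 in 9 of the 10 HSC-like, multipotent-like and megakaryocyte-like clusters, from -0.03 in cluster 7 to 1.35 (0.67 to 2.02) in cluster 6. Cluster 6 was the only one of them whose own interval stayed above 0, at 19.7 CPM in the Listeria and 7.72 CPM in the naive library. Clusters 3 and 13, among those above 0, held only 1 and 3 naive Myd88 UMIs. The share of all genes above 0 in as many clusters was not computed. The median log2 ratio of all genes counted was itself above 0 in the 3 classes, at 0.11, 0.07 and 0.01. Exons of Myd88 overlap those of Acaa1a on the opposite strand, and the deposited files do not state how such reads were assigned. The log2 ratio of Acaa1a was 0.07 in HSC-like cells, -0.27 in multipotent-like and -0.45 in megakaryocyte-like cells, and the part of shared reads in the Myd88 result was not tested. Exons of Il6ra likewise overlap Gm42809, and those of Csf1r overlap Hmgxb3.

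In multipotent-like cells 8 members were counted and 3 were called higher, Csf2rb (1.46), Myd88 (0.63, 0.28 to 0.98) and Il6st (0.62, 0.18 to 1.09), and none lower, where 7.5% of all genes counted were called higher and 3.92% lower, and 9.34% and 5.08% of those with 50 to 1000 UMIs. With TMM factors Myd88 and Il6st lay inside the limit at 0.55 each. Myd88 was at 0.41 at resolution 0.5 and 0.45 at resolution 2, and at 1.15 with cells thinned in a single random draw. Il6st was at 0.28 at resolution 0.5 and at 0.34 in the same draw. It was at 0.31 where the UMI minimum for a cell was set in each library from its deepest barcodes. A single draw adds counting error of its own. Over all draws Myd88 was expected in 4.64% of Listeria and 3.08% of naive multipotent-like cells, and Il6st in 2.95% and 1.87%. The median ratio of the members was 0.07 and that of all genes counted 0.07. Csf3r was lower by a log2 ratio of -0.27 (-0.46 to -0.07), inside the limit. Most Listeria cells of this class lay in cluster 3 and most naive ones in cluster 5, with 831 cells. Without clusters 3 and 13, Myd88 remained past the limit at 0.62, Il6st was at 0.19, Csf3r at 0.10, and Il6ra (-0.59) and Tlr2 (-0.62) passed it downwards. The cells that remained were unlike in mix, with 595 Listeria and 363 naive cells in cluster 8 and 202 and 831 in cluster 5. The part of this mix in these ratios was not tested. Within clusters 5 and 8 the Tlr2 ratios were -1.18 (-3.14 to 0.32) and -0.31 (-1.45 to 0.87). Il6ra differed within cluster 8, at 22.4 CPM in the Listeria and 38.2 CPM in the naive library (log2 ratio -0.77, -1.18 to -0.36), whereas Listeria cells of cluster 3 had 55.7 CPM. Within cluster 5 the Il6ra ratio was 0.10 (-0.27 to 0.46).

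In megakaryocyte lineage-like cells Csf2rb was the 1 member of 8 counted that was called higher, at 0.98 (0.24 to 1.79), against 5% of all genes counted and 5.95% of those with 50 to 1000 UMIs. None was called lower, against 4.17% and 5.18%. Myd88 (0.51, 0.16 to 0.88) and Il6ra (0.38, 0.09 to 0.68) lay inside the limit. Il6ra rested on cluster 13, where Listeria cells had 51.9 CPM, and without clusters 3 and 13 its ratio was -0.04, Csf2rb was at 0.67 (-0.17 to 1.56) and Il6st passed the limit downwards at -0.69. In myeloid-like cells Csf2rb was again the only member called higher, 1 of 6 counted, at 0.91 (0.59 to 1.23), against 5.27% of all genes counted and 5.63% of those with 50 to 1000 UMIs. None was called lower, against 6.06% and 6.34%. Over all kept cells, Csf2rb (1.23, 1.07 to 1.38) and Tlr4 (0.71, 0.29 to 1.13) were called higher, 2 of 10 counted against 5.27% of genes and 8.86% of those with 50 to 1000 UMIs. None was lower, against 6.67% and 11.5%. Over all kept cells Csf2rb, with 1528 UMIs, and several other members lay above the range of 50 to 1000 UMIs. Without clusters 3 and 13 Csf2rb was at 0.63 (0.46 to 0.81) and Tlr4 at 0.89 (0.46 to 1.32).

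**Figure D3:**
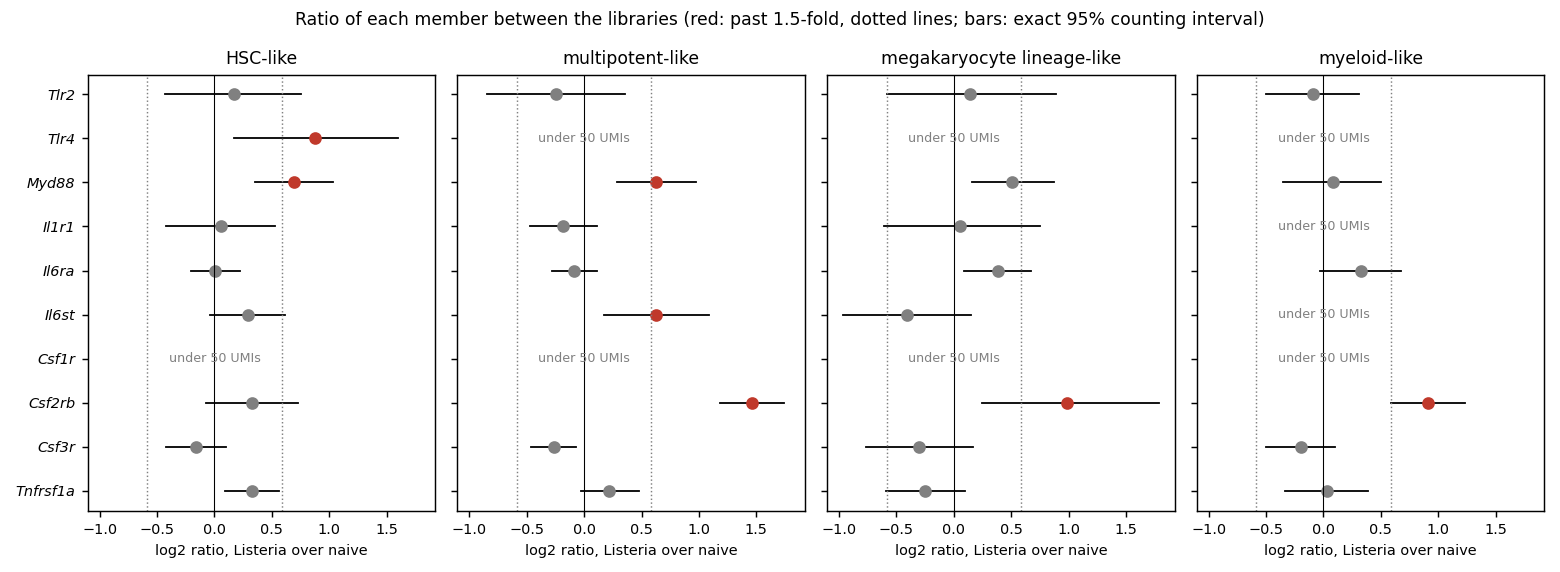
Log2 ratio of the Listeria over the naive library for each member in 4 cell classes (points, red where past 1.5-fold, which the dotted lines mark) with exact 95% counting intervals (lines), 1 library per group. Csf2rb is past the limit in 3 of the 4 classes, and members under 50 UMIs have no point.

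Detection per cell was compared after reducing every cell to 2500 UMIs, as the share of cells expected to keep a UMI. At that depth a UMI of any member was expected in 33.1% of Listeria and 29.6% of naive HSC-like cells, in 40.4% and 35.1% of multipotent-like cells, in 24.0% and 21.7% of megakaryocyte-like cells and in 63.7% and 58.0% of myeloid-like cells. At full depth the shares were 63.4% and 59.5%, 73.5% and 64.3%, 60.8% and 56.4%, and 90.9% and 93.8%. Erythroid-like cells, which should hold little of these receptors, gave 7.49% in the Listeria and 4.68% in the naive library at equal depth, with median full depths of 10368 and 8486 UMIs against 6393 and 6485 in HSC-like cells.

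By gene, Il6ra was expected in 8.94% of Listeria and 9.03% of naive HSC-like cells, against 0.938% and 0% of erythroid-like cells, and Tnfrsf1a in 8.45% and 6.71%, against 2.58% and 1.66%. Tlr2, at 1.42% and 1.21% of HSC-like cells, stood against 0.597% and 0% of erythroid-like and 0.602% and 1.21% of B cell-like cells, so in the naive library its share in HSC-like cells was at the level of B cell-like cells. Myd88, at 4.44% and 2.74%, stood against 1.91% and 1.95% of erythroid-like cells. Free RNA, profiled from barcodes with 1 to 50 UMIs, was estimated from haemoglobin transcripts at 1.97% of the UMIs of Listeria and 1.66% of those of naive HSC-like cells. It would add at most 0.494 CPM of any member.

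**Figure D4:**
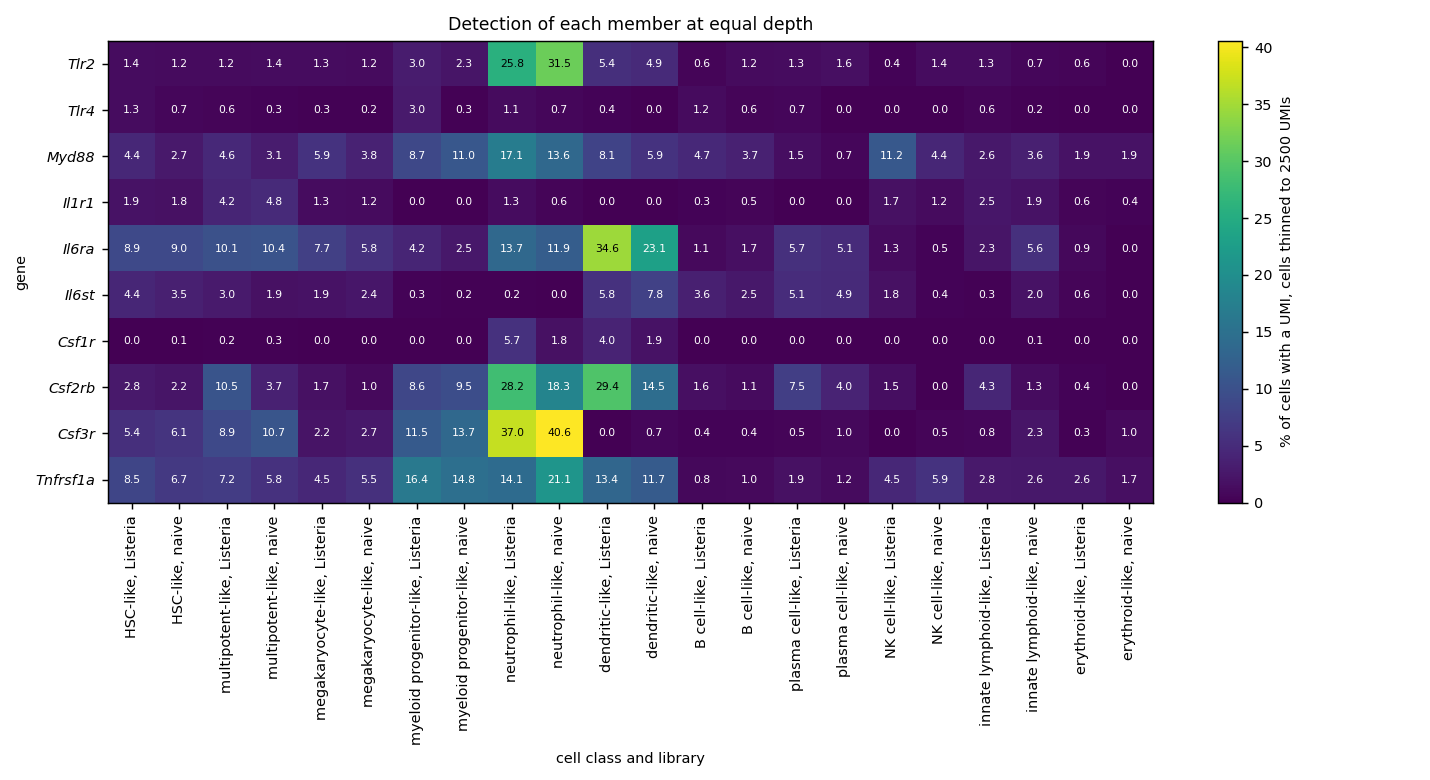
Share of cells expected to hold a UMI of each member when every cell is reduced to 2500 UMIs, by cell class with Listeria left of naive. Csf3r and Tlr2 are brightest in neutrophil-like cells and Il6ra in dendritic-like cells, at 34.6% in the Listeria and 23.1% in the naive library.

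Around the members, lists of the same pathways were described with the same limit. In HSC-like cells 4 of the 13 counted cytosolic sensors were called higher and none lower, where 6.35% of all genes counted were called higher and 2.07% lower. They were Ifih1, a sensor of viral double-stranded RNA (150 CPM in the Listeria and 65.2 CPM in the naive library, log2 ratio 1.20, 1.07 to 1.33), Nlrp3 and Casp1 of the inflammasome (1.04 and 0.94), and Mavs, the adaptor of Ifih1 (0.67). Ifih1 was among the leading genes of cluster 4, which held 232 of the 1170 Listeria and 101 of the 1828 naive HSC-like cells. In cluster 4 it had 504 CPM in the Listeria and 282 CPM in the naive library (0.84, 0.62 to 1.06), whereas its ratio was 0.11 in cluster 10, 0.21 in cluster 7 and -0.06 in cluster 6, with intervals that held 0. Of the Nlrp3 UMIs in HSC-like cells, 35 Listeria and 4 naive ones lay in cluster 4, and 10 and 22 in cluster 6. Cluster 7 held 8 naive Nlrp3 UMIs and no Listeria one. Over all kept cells Nlrp3 went the other way, with a log2 ratio of -0.64 (-0.83 to -0.45). Casp1 differed in cluster 10, with 25.2 CPM in the Listeria and 8.53 CPM in the naive library (1.56, 0.89 to 2.28), and had a ratio of 0.09 in cluster 4.

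Cd14, which hands lipopolysaccharide to Tlr4, was higher at 23.7 CPM in the Listeria and 14.9 CPM in the naive library (0.67, 0.37 to 0.97), 1 of 3 counted co-receptors. In cluster 4 it had 76.6 CPM in the Listeria and 31.5 CPM in the naive library (1.28), and in cluster 10 it held 5 Listeria and 10 naive UMIs. The part of the cluster mix in these results was not tested. Of 15 Toll and interleukin-1 receptor adaptors and kinases Myd88 alone was called, with a list median of 0.34. With TMM factors Cd14 and Mavs both lay at 0.56, inside the limit.

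Il1r2 and Socs3 were called lower in the same cells. Il1r2, a decoy receptor for interleukin-1, had 5.17 CPM in Listeria and 8.21 CPM in naive HSC-like cells (-0.67, -1.23 to -0.13). Socs3, an inhibitor of gp130 signalling, had 79.2 and 129 CPM (-0.71, -0.84 to -0.58) and was the only gene called among 9 gp130-related genes and among 8 intracellular feedback inhibitors counted. Its ratio lay below 0 in all 4 HSC-like clusters, from -1.24 in cluster 4 to -0.24 (-0.50 to 0.02) in cluster 6, where the interval held 0. No gene was called among 10 tumour necrosis factor, 4 common beta chain or 4 growth factor receptor genes counted.

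In multipotent-like cells, where 7.5% of all genes counted were called higher and 3.92% lower, most list calls changed when clusters 3 and 13 were left out. Csf2rb and Csf2rb2 were 2 of the 4 common beta chain receptor genes counted, with Csf2rb2 at 2.37 (1.66 to 3.16), and without these clusters neither passed the limit, at 0.12 and 0.50. Tnfrsf1b, the type 2 receptor for tumour necrosis factor, had 21.6 CPM in the Listeria and 10.0 CPM in the naive library (1.11, 0.75 to 1.48), and 0.49 without them. Pias1, an inhibitor of STAT signalling, had 73.4 and 45.7 CPM (0.68), and 0.01 without them. Flt3, a growth factor receptor of early progenitors, was called lower (-0.59, -0.72 to -0.46), and was at -0.11 without them. Casp1 (0.72), Fadd (1.03), an adaptor of death receptors, and Lbp, the lipopolysaccharide-binding protein (-1.20, -1.52 to -0.88), stayed past the limit without them, at 1.03, 1.71 and -0.86. The cells that remained were still unlike in their mix of clusters 5 and 8.

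In megakaryocyte-like cells, where 5% of all genes counted were called higher and 4.17% lower, Tnfrsf1b (1.00), Casp1 (0.62), Tmem173 (0.62, with an interval that held 0) and Pias1 (0.60) were called higher. Socs3 (-0.66), Tnfaip3, an inhibitor of NF-kB signalling (-0.68), Ticam1 (-0.87) and Il18rap (-0.72) were called lower. Without clusters 3 and 13, Tnfrsf1b (0.85), Casp1 (0.72), Tmem173 (1.00) and Ticam1 (-0.88) remained past the limit, and Pias1 (0.34), Socs3 (-0.54), Tnfaip3 (-0.42) and Il18rap (-0.55) lay inside it.

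In myeloid-like cells, where 5.27% of all genes counted were called higher and 6.06% lower, Irak3, an inhibitory kinase of the Toll pathway, was higher at 145 CPM in the Listeria and 58.1 CPM in the naive library (1.32, 1.03 to 1.62). Pias1 (0.86), Nod1 (0.68), Traf2 (0.64) and Birc3 (0.63) were also called higher, with intervals above 0. Tyk2 (0.62) and Ddx58 (0.61) passed the limit with intervals that held 0, and with TMM factors they lay inside it at 0.58 and 0.57. Flt3 (-1.22) and Ly86 (-0.99) were lower with intervals below 0, and Cd180 (-0.67) and Tmem173 (-0.62) with intervals that held 0. Dendritic-like cells made up 52 of 186 Listeria and 117 of 258 naive cells of this class.

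Genes whose levels over the 25 clusters were most like those of a member, both libraries summed, were ranked by Pearson correlation of log2(CPM + 5) as a description. Clusters share their libraries and depth. Il1r1 was most like Hmga2 (0.92), Cd34 (0.87), a surface marker of progenitors, and Tes (0.78). Tlr2 was most like B430306N03Rik (0.91), Gpr141 (0.91) and Ifitm6 (0.91), and Csf3r like Fgd4 (0.88), Pygl (0.87) and Ffar2 (0.86). Csf2rb was most like Scamp2 (0.84), Ctsh (0.83) and Cfp (0.79), and Tnfrsf1a like S100a11 (0.89), Lst1 (0.84) and Myl12b (0.84). Il6ra was most like Alcam (0.80), Myo5a (0.78) and Crlf2 (0.78), Il6st like Cdc42se2 (0.80), Pou2f2 (0.76) and Irs2 (0.76), and Myd88 like Atg3 (0.83), Atp6v1e1 (0.83) and Arpc4 (0.82). Tlr4 and Csf1r, with under 200 UMIs each, were not ranked.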

How the data were processed

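Single-cell RNA was measured in 2 libraries. The authors deposited unfiltered matrices of raw counts (UMIs of each gene in each barcode), not normalized. Cell Ranger 3.0.2 and mm10 are named in the submitters' processing notes. The labels name a single-cell 3' kit. The libraries held 43895966 UMIs (Listeria) and 64619150 UMIs (naive), and total counts set the width of the intervals. Gene positions came from GENCODE vM21, to which 31011 of 31053 identifiers matched.

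Cells had at least 2500 UMIs, at least 500 genes and at most 10% mitochondrial UMIs, and held 89.4% of Listeria and 78.6% of naive UMIs. Scrublet called 1 cell per library, so it did not work and doublets remain. Clustering used scanpy 1.11.5 and Python 3.11.15 (counts scaled to 10000 per cell, 2000 variable genes without the members, 30 principal components, 15 neighbours, Leiden resolution 1, 25 clusters). A marker counted if found in at least 10% of a cluster's cells and at a CPM at least 2 times that of the clusters' first quartile with 5 CPM added. A class needed the largest share of its markers, at least 3 and at least 50%, and no other class leading among the 10 leading genes. This naming rule was completed after the data were seen, and 4 clusters stayed unnamed. The members, gene lists and markers were chosen with earlier results of these data known. Named genes are the members, up to 4 genes of each list by level, and the 3 genes most like each member with at least 200 UMIs; list genes past the limit, genes that lead clusters, overlapping genes and dendritic markers were named after their values were seen.

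Counts were summed per class and library as CPM with exact Poisson intervals; ratios have exact intervals from the binomial split and shares Clopper-Pearson intervals. A share after reducing cells to 2500 UMIs is the expected value over all draws. Ratios and counts of members called with thinned cells rest on a single random draw, as do shares from 2 UMIs of 1 member. No test was possible with 1 library per group. The ratio step was tested on simulated counts of 10745 genes for HSC-like cells. Intervals held the planted value for 95.6% of 10545 unchanged genes, 97% of 100 at 1.5-fold and 93% of 100 at 2-fold. The limit was passed by 1.65% of unchanged genes, 44% of those at 1.5-fold and 98% of those at 2-fold. Alternatives covered cell calling, mitochondrial share, clustering, doublet scores, clusters from 1 library, shared barcodes, scaling in R 4.3.3 by TMM (edgeR 4.0.16) or by size factors (DESeq2 1.42.0), weighting, thinning, free RNA, minimums and limits. HSC-like with multipotent-like cells together, and the list genes without clusters from 1 library, rescaled or by HSC-like cluster, were added after seeing the data.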

Additional observations from a re-analysis of the deposited data

How the results depend on the processing

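No paired analysis was possible because each group is 1 library. The share of all genes called was computed in the main setting only. Counts of members called under the other settings below have no such share beside them and cannot be read against it. In HSC-like cells 2 members were called higher. The number was 1 with at most 5% mitochondrial UMIs, with TMM or median-ratio size factors, or with cells thinned to 2500 UMIs in a single draw. With a looser limit it was 4 and with a 2-fold limit 0, and at resolution 0.5 it was 2, Il1r1 (0.93) and Csf2rb (2.30), in place of Tlr4 and Myd88. TMM factors shifted every log2 ratio in HSC-like cells by -0.11 and size factors by -0.11. In multipotent-like cells the 3 members called higher became 1 at resolution 2, without clusters from 1 library, with TMM or size factors and at a 2-fold limit. At resolution 0.5 they became 0, with 1 called lower and Csf2rb reversed to -0.21, and without clusters from 1 library 2 were called lower. In megakaryocyte-like cells 1 member was called lower at resolution 0.5, with members among the variable genes, without clusters from 1 library and at the looser limit, where none was in the main setting. The number called higher there was 2 at resolution 2 or with equal weight per cell, 3 at the looser limit and 0 at 2-fold. In myeloid-like cells 1 was called lower with thinned cells, a minimum of 20 UMIs or no minimum. The number called higher was 2 with a minimum of 20 UMIs, 4 with no minimum, 2 at the looser limit and 0 at 2-fold. Over all kept cells 4 were called higher at the looser limit and 1 at 2-fold. The other 151 counts recomputed stayed within 1.5 times, and of the recomputed single ratios 554 stayed within the interval of the main value, 28 moved beyond it and 1 reversed. The count of 9 members highest in a myeloid-like class was the same in the alternatives run. Without thinning, the shares of cells with any member were 63.4% and 59.5% (HSC-like, Listeria and naive), 73.5% and 64.3% (multipotent-like), 60.8% and 56.4% (megakaryocyte-like) and 90.9% and 93.8% (myeloid-like). From 2 UMIs of 1 member they were 1.88% and 1.42%, 3.40% and 2.47%, 1.47% and 0.839%, and 16.7% and 15.1%. The causes were not tested. Tlr4 and Csf1r are limited by depth, with 199 and 74 UMIs in all.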
